A study of Mus musculus with 6 samples.

Results

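The genes described here build the centromere and the kinetochore, the protein assembly that ties chromosomes to spindle microtubules, or run the checkpoint that holds cells in mitosis until every chromosome is attached. They are 36 named genes, chosen by their symbols and found in the count table by Ensembl gene ID, out of 52856 rows in all. Each of the 36 passed the filter on low counts, which kept 14387 rows. RNA-seq was done on CD4+ T cells from the spleen of 8-week-old C57BL/6 mice, in 3 wild type (WT) libraries and 3 libraries of genotype miPEP31-/- (miPEP31 KO). miPEP31 is a small peptide translated from the precursor RNA of miR-31. Cells of both genotypes had been activated with antibodies to CD3 and CD28 for 48 hours, so every comparison is between activated cells and none is with resting cells. The labels do not state how the allele was made, whether miR-31 itself is intact, or whether the libraries of a group came from separate mice. The p-values therefore set the difference between groups against the spread among these libraries, which may not be the spread between mice.

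A centromere is marked by nucleosomes that carry the histone H3 variant CENP-A, which is loaded by dedicated chaperones. On it sits the inner kinetochore, also called the constitutive centromere-associated network (CCAN), and on that the outer kinetochore, whose NDC80 complex grips the microtubule. Unattached kinetochores recruit checkpoint proteins that block CDC20, the activator of the anaphase-promoting complex, while the chromosomal passenger complex with its kinase Aurora B releases faulty attachments. Activated T cells divide fast, and many of these genes are transcribed mainly in the late part of the cell cycle.

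Library totals lay between 22865487 and 26295776 counts, and a single member had between 134 and 4717 counts in a library. Levels are given as CPM, counts scaled to library size after TMM normalisation. The 6 CD4 T cell markers Cd3d, Cd3e, Cd3g, Cd4, Trac and Cd28 summed to 1313 to 1430 CPM in the WT libraries and 994 to 1111 CPM in the KO libraries. All 6 had counts. Summed markers of other cell types were 53.3 to 80.6 CPM in WT and 60.1 to 110 CPM in KO for B cells (7 of 7 markers with a count), 12.5 to 15.8 and 15.9 to 36.9 CPM for CD8 T cells (2 of 2), and 6.25 to 7.58 and 12.04 to 13.1 CPM for dendritic cells (5 of 6, Clec9a at 0). Macrophage and monocyte markers (4 of 6, Adgre1 and Fcgr1 at 0) lay between 2.98 and 7.71 CPM, and those of NK cells (4 of 4), neutrophils (1 of 4, S100a8, S100a9 and Retnlg at 0) and erythroid cells (4 of 4) at no more than 2.15 CPM. The sums of CD4 T cell, CD8 T cell, dendritic cell, neutrophil and erythroid markers did not overlap between genotypes, and their part in the results was not tested. Single genes carried some of these differences. Among dendritic cell markers only Zbtb46 was apart (3.13 to 5.42 CPM in WT, 7.27 to 10.6 CPM in KO), and among erythroid markers only Hbb-bt. Ly6g alone made up the neutrophil sum. Cd8b1 of the CD8 list and Cd28 of the CD4 list overlapped between genotypes. In such bulk samples, fewer cells in mitosis and less RNA of a gene per mitotic cell cannot be told apart.

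Cenpa, 4 of 6 checkpoint genes and 3 of 4 genes of the passenger complex were lower in the KO, 10 of 13 inner kinetochore genes did not pass the test, and Zwint of the outer kinetochore was higher. Of the 36 genes, 14 fell and 2 rose past an adjusted p of 0.05 (edgeR quasi-likelihood test across all genes), and 20 did not pass. Over all genes tested, 22.2% were called lower and 25.1% higher. The share called lower among the 36 was 38.9%, above that background, and the share called higher was 5.56%, below it. Their median log2 fold change, KO over WT, was -0.18, beside 0.01 over all genes tested. In 17 of the 36 all 3 KO libraries lay below all 3 WT libraries, where the background was 28.4% of genes, and in 4 all KO libraries lay above, where it was 30.6%.

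The 36 genes together took 2555, 2680 and 2780 CPM in the WT libraries and 2342, 2187 and 2137 CPM in the KO libraries. The groups did not overlap in this sum. KO replicate 1 stood nearest to the WT libraries: relative to the WT mean, the median gene was at -0.09 on the log2 scale there, at -0.24 in KO replicate 2 and at -0.18 in KO replicate 3. WT replicate 1 was the lowest WT library, at -0.07, with the other two at 0.03 and 0.04. In 26 of the 36 genes KO replicate 1 was the highest of the KO libraries.

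**Figure D1:**
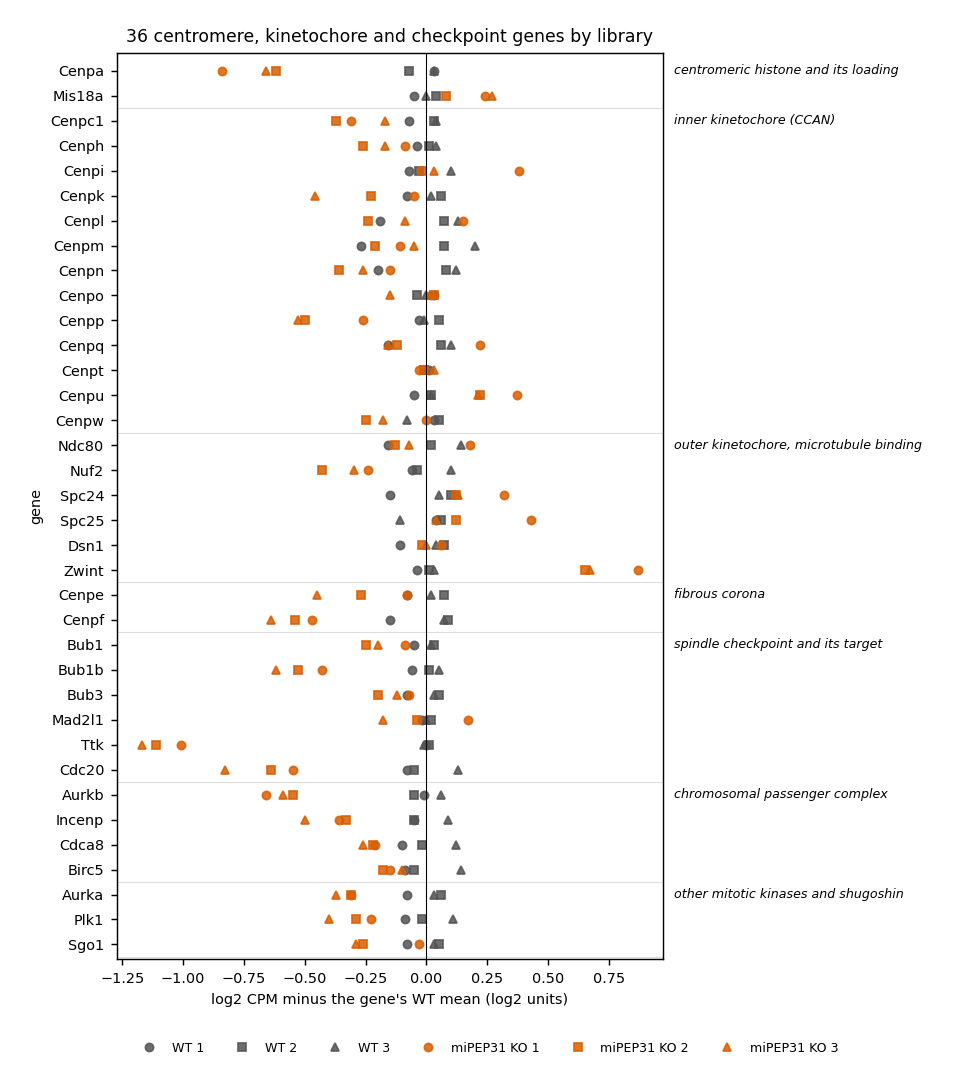
Each row is a gene and each point a library, plotted as its log2 CPM minus the mean of the 3 WT libraries of that gene (x axis, log2 units), with WT in grey, miPEP31 KO in orange and the replicate number as the shape. The KO points of Ttk, Cenpa, Cdc20, Aurkb, Cenpf and Bub1b sit left of all WT points, those of Zwint sit right, and most inner kinetochore genes have overlapping groups.

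Cenpa RNA was lower, and the genes of the machinery that loads CENP-A differed among themselves. Cenpa (ENSMUSG00000029177, GRCm38 chromosome 5, 30666777 to 30674830, protein coding) stood at 182, 170 and 182 CPM in the WT libraries and at 99.6, 116 and 113 CPM in the KO libraries. All KO libraries were below all WT libraries, and the means were 178 ± 7.01 and 110 ± 8.73 CPM (SD, n = 3 each). The edgeR log2 fold change was -0.70 ± 0.07 SE at an adjusted p of 0.000215, a drop of 38.5%. Mis18a, a subunit of the complex that licenses centromeres for new CENP-A, had 33.9 ± 1.05 CPM in WT and 38.9 ± 2.72 CPM in KO. Its KO libraries lay above its WT libraries, but it did not pass (edgeR log2 fold change 0.20, adjusted p = 0.0581). It passed as higher with plain library sizes (adjusted p = 0.0255) and without KO replicate 2 (adjusted p = 0.0463).

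Genes of the loading pathway outside the 36 were also measured. Hjurp, the chaperone that delivers CENP-A to the centromere, went from 513 ± 21.1 to 280 ± 16.2 CPM, an edgeR log2 fold change of -0.87 ± 0.07 SE at an adjusted p of 4.74e-05. Oip5, which encodes Mis18b, a partner of Mis18a, had a log2 fold change of 0.19 and did not pass (edgeR adjusted p = 0.171). Cenpa and Hjurp were therefore lower while Mis18a and Oip5 did not pass.

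Most of the inner kinetochore did not pass the test. Of its 13 genes 2 (15.4%) were lower, 1 (7.69%) was higher and 10 were not called. Over all genes tested 22.2% were lower, 25.1% were higher and 7581 of 14387 did not pass. The median log2 fold change of the 13 was -0.14. Their mean WT levels ran from 8.35 (Cenpp) to 58.3 CPM (Cenpc1), with SE up to 0.13. Cdca8 of the passenger complex, at 112 CPM in WT, passed at -0.23 (SE 0.07), while Cenpn did not at -0.27 (SE 0.11). Cenpc1, the gene of CENP-C, which binds the CENP-A nucleosome and carries the rest of the assembly, had 55.3, 59.7 and 59.9 CPM in WT and 46.9, 45.2 and 51.7 CPM in KO. Its groups did not overlap, and the edgeR log2 fold change was -0.28 ± 0.07 SE at an adjusted p of 0.0142. The call was lost when WT replicate 2 (adjusted p = 0.0593), WT replicate 3 (0.0548) or KO replicate 2 (0.0605) was left out.

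Cenpp, a member of the CENP-O group, had 8.15, 8.62 and 8.27 CPM in WT and 6.94, 5.88 and 5.76 CPM in KO. Here too all KO libraries were lower (edgeR log2 fold change -0.43 ± 0.13 SE, adjusted p = 0.0254). That call was lost when any 1 WT library or KO replicate 2 was left out (adjusted p 0.0616 to 0.0852). Exons of Cenpp share 12.6% of their bases with Ippk and Aspn on the opposite strand, and whether the counting used strand is not stated. Ippk was at 0.32 and did not pass (edgeR adjusted p = 0.11), and Aspn was not tested.

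Cenpu, another gene of the CENP-O group, was the 1 inner kinetochore gene called higher. It had 11.4, 12 and 12.01 CPM in WT and 15.3, 13.8 and 13.7 CPM in KO, with no overlap (edgeR log2 fold change 0.27 ± 0.10 SE, adjusted p = 0.0488). The call is weak: it was lost in 12 of 14 alternative analyses, each omission of a single library among them, with adjusted p between 0.0501 and 0.147 in those 12. Its exons share 26.7% of their bases with Primpol on the opposite strand, and Primpol itself went from 59.7 ± 3.40 to 39.3 ± 6.74 CPM (edgeR log2 fold change -0.61, adjusted p = 0.00449).

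The other 10 genes of the network had log2 fold changes from -0.27 to 0.14. Cenpn, which recognises the CENP-A nucleosome, was at -0.27 (SE 0.11, edgeR adjusted p = 0.0794), and passed as lower without WT replicate 1 (adjusted p = 0.0329) or KO replicate 1 (adjusted p = 0.0427). Cenpk, of the CENP-H group, was at -0.24 (SE 0.12, edgeR adjusted p = 0.143), and passed as lower without KO replicate 1 (adjusted p = 0.0361). Cenph, Cenpm and Cenpw were at -0.17, -0.14 and -0.14. Cenpt, whose product links DNA to the NDC80 complex, had 28.2 ± 0.184 CPM in WT and 28.2 ± 0.631 CPM in KO (log2 fold change -0.00 ± 0.07 SE). Cenpl, Cenpo and Cenpq were at -0.06, -0.03 and -0.01. Exons of Cenpo share 22.5% of their bases with Adcy3 and Ptrhd1 on the opposite strand, which were at -0.33 and 0.05 and did not pass. Cenpi was at 0.14 with 31.8 CPM in KO replicate 1 against 24.1 and 25.0 CPM in the other KO libraries, and at -0.00 without KO replicate 1. Per kilobase of the longest principal transcript, the 13 genes had mean WT levels from 4.03 (Cenpu) to 18.3 CPM per kilobase (Cenpc1), all below the 122 CPM per kilobase of Cenpa. In the KO the range was 4.86 (Cenpu) to 15.5 CPM per kilobase (Cenpt), beside 74.7 CPM per kilobase for Cenpa.

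**Figure D2:**
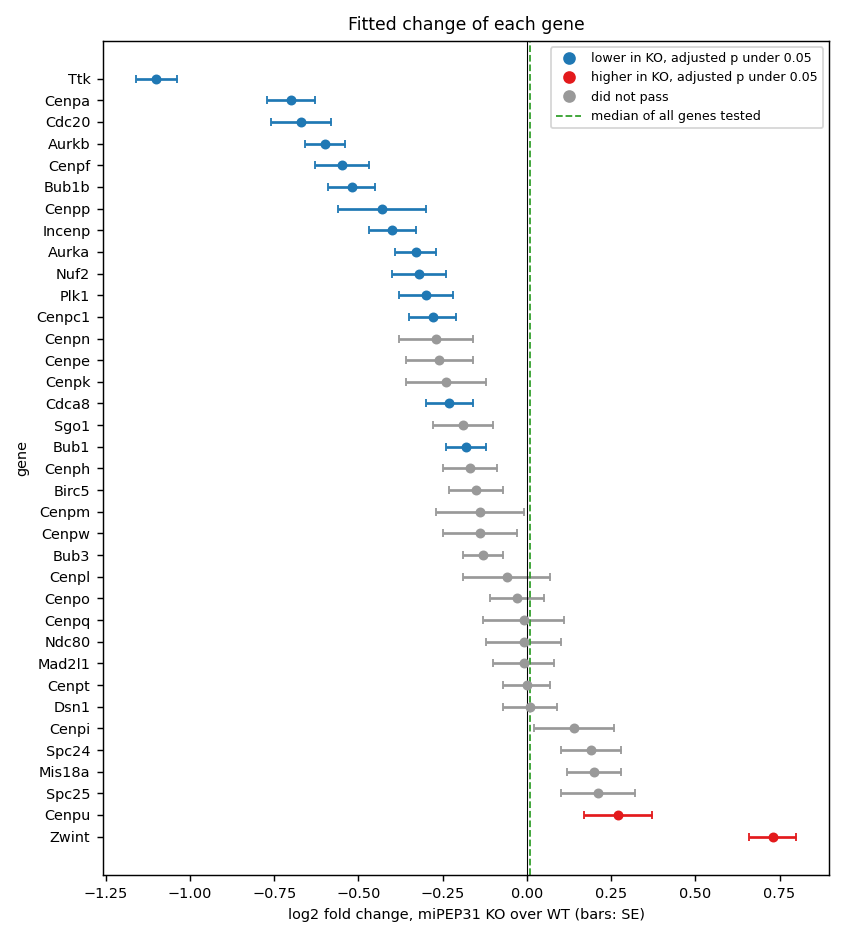
Fitted log2 fold change of each of the 36 genes (x axis, miPEP31 KO over WT), with its SE as a bar, sorted from the lowest; blue genes passed as lower, red as higher and grey did not pass, and the dashed line is the median of all genes tested. Ttk at -1.10 and Zwint at 0.73 are the extremes.

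Of the 6 outer kinetochore genes 1 was lower, 1 was higher and 4 did not pass. Each share called was 16.7%, beside 22.2% lower and 25.1% higher over all genes tested. The NDC80 complex has 4 subunits, and only Nuf2, which forms the microtubule-binding head together with NDC80, was called. Nuf2 had 64.3, 65.3 and 71.96 CPM in WT and 56.8, 49.7 and 54.5 CPM in KO, without overlap (edgeR log2 fold change -0.32 ± 0.08 SE, adjusted p = 0.00906). Its partner Ndc80 had 43.1, 49.0 and 53.4 CPM in WT and 54.7, 44.1 and 46.1 CPM in KO. These groups overlapped, and the edgeR log2 fold change was -0.01 ± 0.11 SE at an adjusted p of 0.963. Spc24 and Spc25, the pair that anchors the complex to the inner kinetochore, stood at log2 fold changes of 0.19 (SE 0.09) and 0.21 (SE 0.11) and did not pass (edgeR adjusted p = 0.125 and 0.167). Per kilobase, Nuf2 went from 27.9 to 22.3 and Ndc80 from 22.05 to 21.95 CPM per kilobase, so the level of Nuf2 in KO was close to that of Ndc80. Spc24 went from 30.2 to 34.3 and Spc25 from 23.4 to 27.0 CPM per kilobase. A test of the difference between subunits was not run.

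Zwint was the clearest exception to the lower levels. It encodes a protein that docks the ROD-ZW10-Zwilch complex, and with it dynein and checkpoint proteins, on the outer kinetochore. Zwint (ENSMUSG00000019923, GRCm38 chromosome 10, 72654845 to 72674964) had 82.2, 85.3 and 86.1 CPM in WT and 155, 133 and 134 CPM in KO. Every KO library was above every WT library, with a 1.66-fold rise (edgeR log2 fold change 0.73 ± 0.07 SE, adjusted p = 0.000171). The call held in each of 14 alternative analyses. Genes of the docked complex went both ways: Zw10 rose by 0.35 (SE 0.07), Zwilch fell by 0.37 (SE 0.07) on the log2 scale, and Kntc1, the gene of ROD, was at -0.07 and did not pass. Dsn1, a subunit of the MIS12 complex that bridges the inner and outer kinetochore, was at 0.01 (SE 0.08), while Mis12 rose by 0.28 and Pmf1 fell by 0.24 among the genes of that complex outside the 36.

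Of the genes of the 2 large corona proteins, which extend from unattached kinetochores, Cenpf was lower (50%, beside 22.2% over all genes tested). It had 105, 124 and 123 CPM in WT and 84.3, 80.3 and 75.1 CPM in KO, without overlap (edgeR log2 fold change -0.55 ± 0.08 SE, adjusted p = 0.00107). Cenpe, the gene of a kinesin motor that moves chromosomes to the spindle equator, had 147 ± 7.46 CPM in WT and 123 ± 15.7 CPM in KO. Its KO libraries were lower than its WT libraries by a narrow margin, 138.7 CPM at most in KO and 138.9 CPM at least in WT, and it did not pass (edgeR log2 fold change -0.26, adjusted p = 0.0537). It passed as lower in 7 of 14 alternatives, with adjusted p from 0.00402 (without KO replicate 1) to 0.0497.

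The largest of the 36 fold changes was in the checkpoint, that of Ttk. Of its 6 genes 4 were lower (66.7%, beside 22.2% over all genes tested) and none was higher, with a median log2 fold change of -0.35. Ttk (ENSMUSG00000038379, GRCm38 chromosome 9, 83834689 to 83872389) encodes MPS1, the kinase that starts checkpoint signalling at unattached kinetochores. It had 73.6, 74.3 and 72.8 CPM in the WT libraries and 36.5, 34.0 and 32.7 CPM in the KO libraries. The lowest WT library was far above the highest KO library, and the spread within each group was small. Ttk was 2.14-fold lower in KO (edgeR log2 fold change -1.10 ± 0.06 SE, adjusted p = 1.65e-05).

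Bub1b, which encodes BUBR1, the checkpoint subunit that binds and inhibits CDC20, had 181, 190 and 195 CPM in WT and 140, 131 and 123 CPM in KO. Again the groups were apart (edgeR log2 fold change -0.52 ± 0.07 SE, adjusted p = 0.000538). Cdc20, the target of the checkpoint, had 134, 136 and 154 CPM in WT and 96.3, 90.6 and 79.7 CPM in KO, also without overlap (edgeR log2 fold change -0.67 ± 0.09 SE, adjusted p = 0.000622). Bub1, a kinase that recruits other checkpoint proteins and marks centromeric chromatin, was lower by a small margin, at 109 ± 3.22 CPM in WT and 96.2 ± 5.47 CPM in KO (edgeR log2 fold change -0.18 ± 0.06 SE, adjusted p = 0.0462). The Bub1 call was lost in 8 of 14 alternatives, among them each omission of a WT library and of KO replicate 2 or 3 (adjusted p 0.0535 to 0.144 over the 8).

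The other 2 checkpoint genes did not pass. Mad2l1, whose product MAD2 is the checkpoint subunit that is converted at unattached kinetochores, had 95.6, 98.2 and 97.2 CPM in WT and 109, 94.1 and 85.5 CPM in KO. KO replicate 1 lay above and KO replicate 3 below every WT library, and the edgeR log2 fold change was -0.01 ± 0.09 SE at an adjusted p of 0.936. Bub3, which brings BUB1 and BUBR1 to the kinetochore, had 160 ± 8.04 CPM in WT and 147 ± 6.59 CPM in KO (edgeR log2 fold change -0.13 ± 0.06 SE, adjusted p = 0.140).

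**Figure D3:**
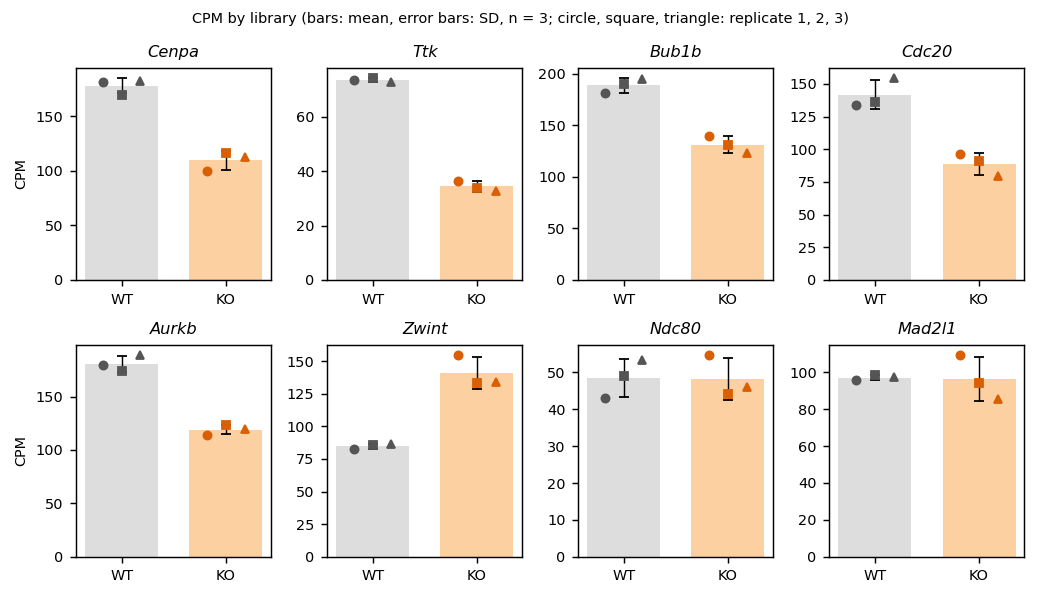
CPM (y axis, from 0) of 8 genes in WT (grey) and miPEP31 KO (orange), with each library as a point, the group mean as a bar and the SD as an error bar (n = 3). Cenpa, Ttk, Bub1b, Cdc20 and Aurkb have all KO libraries below all WT libraries, Zwint has them above, and Ndc80 and Mad2l1 overlap.

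In the chromosomal passenger complex 3 of 4 genes were lower (75%, beside 22.2% over all genes tested). Aurkb, the gene of the kinase Aurora B, which destabilises wrong attachments, had 179, 174 and 189 CPM in WT and 114, 123 and 120 CPM in KO. No library of either group came near the other group (edgeR log2 fold change -0.60 ± 0.06 SE, adjusted p = 0.000175). Incenp, the scaffold that activates Aurora B, had 186, 186 and 205 CPM in WT and 149, 153 and 136 CPM in KO, without overlap (edgeR log2 fold change -0.40 ± 0.07 SE, adjusted p = 0.00257).

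Cdca8, which encodes the targeting subunit borealin, went from 112 ± 8.92 to 95.2 ± 2.04 CPM (edgeR log2 fold change -0.23 ± 0.07 SE, adjusted p = 0.0269). Its call was lost in 5 of 14 alternatives, among them the omission of WT replicate 2 or 3 or KO replicate 2 (adjusted p 0.0557 to 0.0933 over the 5). Birc5, the gene of survivin, which guides the complex to centromeric chromatin, was called neither way, at 84.6 ± 7.51 CPM in WT and 76.4 ± 2.17 CPM in KO (edgeR log2 fold change -0.15 ± 0.08 SE, adjusted p = 0.145), although all its KO libraries lay below its WT libraries. Per kilobase, these genes were among the highest of the 36 in WT, from 59.5 CPM per kilobase for Incenp to 92.7 for Aurkb.

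Of the 3 remaining genes, 2 kinases and shugoshin, both kinase genes were lower (66.7%, beside 22.2% over all genes tested). Aurka, the gene of the spindle pole kinase Aurora A, had 79.2, 87.2 and 85.5 CPM in WT and 67.6, 67.7 and 64.9 CPM in KO (edgeR log2 fold change -0.33 ± 0.06 SE, adjusted p = 0.00332). Plk1, a kinase that acts at centrosomes and kinetochores, had 119, 125 and 137 CPM in WT and 108, 104 and 96.0 CPM in KO (edgeR log2 fold change -0.30 ± 0.08 SE, adjusted p = 0.0115). In Aurka and Plk1 all KO libraries lay below all WT libraries, which held for 28.4% of all genes tested. Sgo1, the gene of shugoshin, which protects centromeric cohesion until anaphase, was at -0.19 (SE 0.09) and did not pass (edgeR adjusted p = 0.105); it passed as lower without KO replicate 1 (adjusted p = 0.0111) and with upper-quartile scaling (adjusted p = 0.0493).

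Other lists of the pathway put these values in context. Among 27 further centromere and kinetochore genes 6 were lower and 5 higher (3 without WT replicate 1), with a median of 0.02. The lower genes included Hjurp, Zwilch, Sgo2a, Kif18a and Pmf1, and the 5 higher ones were Mad2l1bp, Zw10, Spdl1, Mis12 and Haspin. The shares, 22.2% and 18.5%, compare with 22.2% and 25.1% over all genes tested. Of 18 cohesin and condensin genes 6 (33.3%) were lower and 1 (5.56%), the cohesin release factor Wapl, was higher, with a median of -0.17. Without KO replicate 1, 11 were lower, and without WT replicate 1 or 2 none was higher. The cohesin ring subunit Rad21 and the condensin subunit Ncapd2 fell by 0.60 (SE 0.05) and 0.68 (SE 0.06) on the log2 scale.

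Of 20 genes of the anaphase-promoting complex and chromosome separation, 7 were lower and 6 higher, with a median of -0.03. These are 35% and 30%, beside 22.2% and 25.1% over all genes tested. Without a single library, the counts became 2 to 7 lower and 2 to 4 higher. The lower count was 2 when WT replicate 3 was left out and 4 for WT replicates 1 and 2 and KO replicate 2. The higher count was 2 for WT replicate 1 and 3 for WT replicates 2 and 3 and KO replicate 2. The genes of separase and its inhibitor went opposite ways. Espl1 went from 118 ± 11.4 to 84.8 ± 6.52 CPM (log2 fold change -0.48, SE 0.09). The securin gene Pttg1 went from 18.6 ± 0.885 to 34.3 ± 1.61 CPM (log2 fold change 0.89, SE 0.08).

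Among 15 genes of mitotic entry and its transcription factors 5 were lower and 2 higher (median -0.13). The shares, 33.3% and 13.3%, compare with 22.2% and 25.1% over all genes tested. Without WT replicate 2 or 3 the lower count was 3, and without any single WT library or KO replicate 2 the higher count was 1. The lower genes were Cdc25b, the phosphatase gene that starts mitotic entry, at -1.01 (SE 0.08), Ccnb2 at -0.63 (SE 0.07), Ccna2 at -0.39, Foxm1 at -0.20 and Pkmyt1 at -0.20. Lin54 and Lin9, genes of the MuvB core, were higher by 0.37 and 0.38, and Lin9 passed narrowly (edgeR adjusted p = 0.0477). Of the other genes of that core, Lin52 was at 0.28, Lin37 at 0.19 and Rbbp4 at -0.13, and these did not pass. Cdk1, the mitotic kinase, had 111 ± 9.79 and 111 ± 16.9 CPM (log2 fold change 0.00, SE 0.11). Of 34 DNA replication genes 10 (29.4%) were lower and 3 (8.82%) higher, with a median of -0.08. Pold1 was lower at -0.54 (SE 0.06), and Rfc3, Tyms and Rfc5 were the higher ones, at 0.54, 0.58 and 0.27. Rfc5 passed narrowly (edgeR adjusted p = 0.0463). Without a single library, 7 to 13 of the replication genes were lower and 2 to 4 higher.

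**Figure D4:**
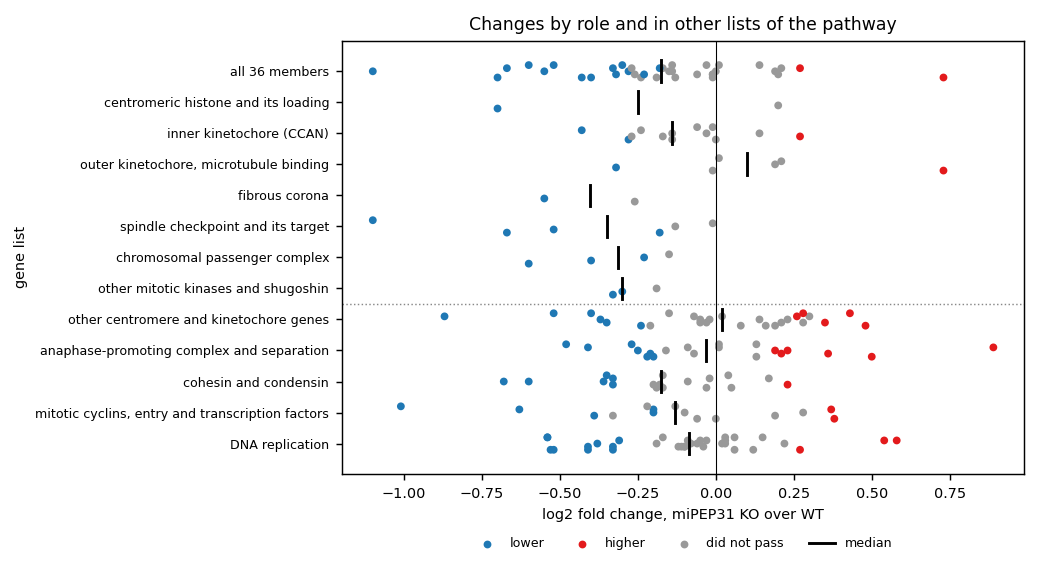
Log2 fold changes (x axis, miPEP31 KO over WT) of the 36 genes, of the same genes by role, and, under the dotted line, of 5 other lists of the pathway; each point is a gene, coloured by its call, and the black bar is the list's median. The medians of the checkpoint, passenger and corona genes lie at -0.35, -0.32 and -0.41, and those of the outer kinetochore and of the other kinetochore genes at 0.10 and 0.02.

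Many genes of late cell cycle carry in their promoters a cell cycle genes homology region (CHR), bound by the MuvB complexes, often with CCAAT boxes upstream, the site of NF-Y. Promoter sequence was therefore set beside the changes. In RefSeq windows (GRCm38.p6) from 250 bases before to 50 bases after a transcription start, the CHR letters TTTGAA or TTCGAA were searched on both strands, as was CCAAT. CHR letters and a CCAAT box overlap by 1 base in Cdca8 and in Cenpw. Of the 36 genes 33 had a window; Spc24, Aurkb and Incenp are named only. CHR letters were found for 18 of the 33, and in 19.2% of all 32851 windows. They were present in 9 of the 12 lower genes with a window, in 9 of the 19 that did not pass and in 0 of the 2 higher genes. A CCAAT box was present in 10, 12 and 2 of these, and in 37.4% of all windows.

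Positions were then compared. CHR letters began within 50 bases of the start in 9 of the 12 lower genes with a window (75%). The same held for 6 of the 19 genes that did not pass (31.6%) and for 5.31% of all windows. Among those with CHR letters anywhere in the window, these were all 9 lower genes, 6 of 9 that did not pass and 1743 of 6316 windows. That distance was chosen after the positions were seen. The stretches below show the arrangement in 6 lower genes and in Spc25, which did not pass. Capitals mark CHR letters (TTCAAA is TTTGAA on the other strand) and CCAAT boxes (ATTGG on the other strand). Only matches wholly inside a stretch are marked. Each stretch reads 5′ to 3′ on the gene's strand. The CHR letters are the capitals nearest the end of a stretch except in Cdca8, where a box follows them. In Cdc20 a box also follows them, 8 bases before the start, but the end of the stretch cuts it. Boxes also begin outside the stretches, 109 and 86 bases before the start in Cenpa, 132 in Cenpf and 85 in Cdca8.
Ttk (chr9:83834610-83834709, plus strand): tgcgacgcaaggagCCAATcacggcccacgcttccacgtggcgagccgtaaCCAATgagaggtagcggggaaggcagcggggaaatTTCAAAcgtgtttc
Cenpa (chr5:30666816-30666915, plus strand): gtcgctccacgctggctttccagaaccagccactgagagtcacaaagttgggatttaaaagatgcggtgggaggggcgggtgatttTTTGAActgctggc
Cdc20 (chr4:118437348-118437447, minus strand): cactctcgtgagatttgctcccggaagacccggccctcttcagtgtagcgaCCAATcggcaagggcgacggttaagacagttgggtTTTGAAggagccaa
Cenpf (chr1:189688071-189688170, minus strand): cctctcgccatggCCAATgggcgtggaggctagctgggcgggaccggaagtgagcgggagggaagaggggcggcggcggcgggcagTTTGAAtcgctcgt
Bub1 (chr2:127831832-127831931, minus strand): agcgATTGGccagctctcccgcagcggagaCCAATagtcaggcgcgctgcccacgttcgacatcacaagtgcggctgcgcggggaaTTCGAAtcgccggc
Cdca8 (chr4:124936891-124936990, minus strand): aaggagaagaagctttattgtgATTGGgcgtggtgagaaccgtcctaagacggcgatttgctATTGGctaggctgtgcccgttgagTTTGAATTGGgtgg
Spc25 (chr2:69206184-69206283, minus strand): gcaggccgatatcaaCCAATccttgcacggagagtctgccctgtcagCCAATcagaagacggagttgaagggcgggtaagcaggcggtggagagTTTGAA

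In Ttk the CHR letters began 8 bases after the start, with CCAAT boxes 65 and 28 bases before it, and Ttk had the largest change of the 36. Cdc20 carried the CHR letters 18 bases before its start, and Cenpa, Bub1 and Cdca8 carried them 17, 15 and 14 bases after it. Spc25 had CHR letters 25 bases after its start and CCAAT boxes 55 and 23 bases before it. Its log2 fold change was 0.21 and it did not pass, so the same letters occurred in a gene that was not called. Cenpn and Cenpw did not pass either, with CHR letters 9 and 25 bases before the start and CCAAT boxes 18 and 29 bases before it. Zwint and Cenpu, the higher genes, had CCAAT boxes and no CHR letters in the window. Nuf2, Cenpc1 and Cenpp were lower and had no CHR letters there. A match describes these letters only, and binding at them was not measured.

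**Figure D5:**
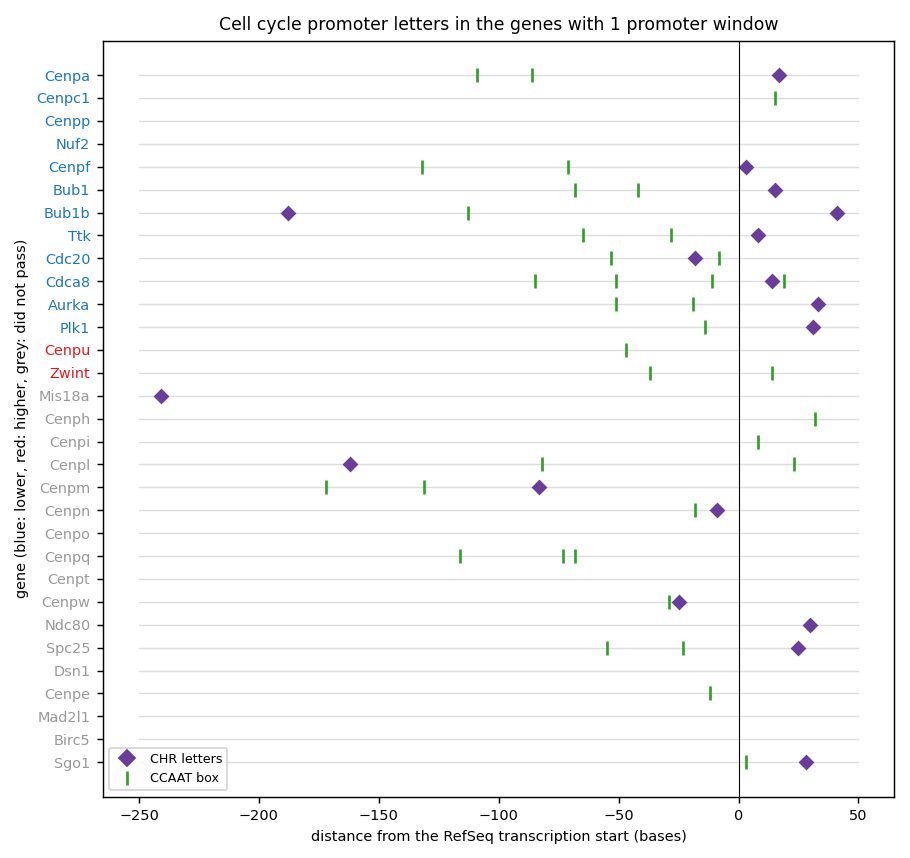
Positions of CHR letters (purple diamonds) and CCAAT boxes (green bars) in the promoter windows of the 31 genes with a single window, by distance from the transcription start (x axis, bases; each mark at the first base of a match); gene names are blue where lower in KO, red where higher and grey where the gene did not pass. The 9 lower genes with a diamond each have one within 50 bases of the start.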

How the data were processed

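Expected counts per gene were deposited by the authors as 1 table for 6 libraries made with a TruSeq RNA kit. Per the submitters' processing notes the tools include Bowtie 0.12.2 and the build mm8; the counting program, annotation and use of strand are not stated there (not given in the sources used here). Of the values above 0, 72.2% were whole, and all were rounded to whole numbers. A further 944 rows with no Ensembl ID (0.903% to 1.56% of counts) stayed in library sizes and tests.

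Genes were kept with edgeR's filterByExpr (minimum count 10), scaled by TMM and tested by edgeR's quasi-likelihood test with Benjamini-Hochberg adjustment over all genes kept (edgeR 4.0.16, R 4.3.3), called at an adjusted p of 0.05. The script was tested on simulated data. Alternatives used DESeq2 1.42.0, limma 3.58.1 (voom), other scalings and filters, a replicate block, and the omission of each library. CPM are means ± SD of TMM-scaled values. Per-kilobase levels use the longest APPRIS principal transcript of GENCODE M21 (GRCm38), whose coordinates are given; promoters are RefSeq's.

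All 36 genes are accounted for. Values per library are given for called genes among the 12 largest fold changes, or among the 12 smallest p with groups that do not overlap, for genes higher in KO, and for Cenpa, Ndc80, Bub1b, Mad2l1, Aurkb and Cdc20. Each further list is named by its 2 smallest p, or by all members of a count of 5 or fewer. Oip5, Kntc1, Cdk1, Zwilch, Sgo2a, Kif18a, Pmf1 and Primpol fall outside that rule and were named after their values were seen. The same holds for Ippk, Aspn, Adcy3, Ptrhd1, Lin37, Lin52 and Rbbp4. The 36 genes and the lists were chosen with earlier results of these data known. A gene of the further lists is counted but not reported here by name.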

Additional observations from a re-analysis of the deposited data

How the results depend on the processing

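Of the 14 genes called lower, 10 kept the call in all 14 alternatives, the exceptions being Cenpc1, Cenpp, Bub1 and Cdca8; Zwint kept its call in all 14 and Cenpu in 2. The count of lower genes was 12 to 16 with DESeq2, limma-voom, other scalings or other filters, and 10 to 18 without a single library. The count of higher genes was 1 with DESeq2, limma-voom, RLE scaling, upper-quartile scaling or no low-count filter, 2 with a minimum of 1 CPM, 3 with plain library sizes, and 1 to 2 without a single library. The median log2 fold change stayed between -0.22 and -0.13. The median of all genes was -0.01 with RLE scaling, -0.02 with upper-quartile scaling and 0.06 with plain library sizes.

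Signs turned only for genes that did not pass. All of them were near 0 except Cenpi, which was at 0.14 and turned to -0.00 without KO replicate 1. Dsn1 was at -0.01 with DESeq2, -0.01 with RLE scaling, -0.02 with upper-quartile scaling and -0.00 with no low-count filter. With plain library sizes Cenpo was at 0.02, Cenpq at 0.03, Cenpt at 0.04, Ndc80 at 0.04 and Mad2l1 at 0.03. Without a single library the log2 fold changes ranged from -0.00 to 0.20 for Cenpi, -0.18 to 0.02 for Cenpl, -0.07 to 0.01 for Cenpo, -0.15 to 0.04 for Cenpq, -0.03 to 0.01 for Cenpt, -0.11 to 0.06 for Ndc80, -0.04 to 0.04 for Dsn1 and -0.11 to 0.05 for Mad2l1.

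Among the further lists, plain library sizes gave 4 lower genes of the anaphase-promoting complex and separation and 3 of mitotic entry, where RLE and upper-quartile scaling each gave 1 higher gene. Without a single library, the anaphase-promoting list had 2 to 7 lower and 2 to 4 higher, the cohesin and condensin list 6 to 11 lower and 0 to 1 higher, the mitotic entry list 3 to 7 lower and 1 to 2 higher, and the other kinetochore list 3 to 5 higher. The cause was not tested.

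Replicate numbers are shared between the groups, but same-numbered libraries did not deviate together (correlations 0.00103, -0.00718 and -0.0156 over genes), nor did each correlate best with its own number. With a replicate block 11 of the 36 genes were lower and 1 higher, the anaphase-promoting list had 4 lower and 2 higher, and the mitotic entry list 3 lower and 1 higher.

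The SE of the 36 genes was 0.06 to 0.13 on the log2 scale. With 3 libraries a group, differences well above the SE could still fail the test. Cenpn at -0.27 (SE 0.11) and Spc25 at 0.21 (SE 0.11) did not pass, while Bub1 at -0.18 (SE 0.06) did.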
